A study of Homo sapiens with 9 samples.

Results

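The genes described here build the nuclear pore or carry cargo through it: nucleoporins (NUP), importin alpha and beta subunits (KPNA, KPNB, IPO) and exportins (XPO). They were chosen by name, as protein-coding genes whose only symbol on the array is 1 of these stems followed by a digit, with the stress gene family NUPR, pseudogenes and antisense genes left out. The rule gave 42 of the 19775 genes measured, 23 nucleoporins and 19 karyopherins, read by 115 probe sets. A further 5 genes that share a stem were left out by the rule (IPO5P1, NUP210P1, IPO9-AS1, NUP133-DT and NUP50-DT). The naming rule itself uses no measured value.

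RNA came from P493-6, an established human B-lymphocyte line. It is known for a MYC transgene that tetracycline switches off and for carrying an estrogen-dependent form of the viral factor EBNA2. The labels give 4 arrays with high Myc expression, 3 with low Myc and 2 with no Myc, all of this 1 line, and name no drug, dose or time. They do not say whether the replicates were separate cultures, so the p-values measure array-to-array spread that may be purely technical. Each value is an intensity, the brightness of a probe set after normalization, and was compared on the log2 scale, where a difference of 1 is a 2-fold change.

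The nuclear pore complex is a ring-shaped channel through the nuclear envelope. An outer ring of Y-shaped complexes (NUP107, NUP133 and partners) and an inner ring (NUP93, NUP155, NUP205, NUP188, NUP35) form the scaffold, and nucleoporins rich in phenylalanine-glycine repeats fill the channel. Importins bind cargo in the cytoplasm and release it when RAN loaded with GTP binds them in the nucleus, whereas exportins need that form of RAN to hold cargo. MYC is a transcription factor known for raising ribosome production, which sends ribosomal proteins into the nucleus and ribosomal subunits out of it.

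The arrays had median intensities of 75.3 to 80.3, and correlations across genes of 0.976 to 0.992 within groups and 0.917 to 0.982 between groups. MYC read 12755, 11326, 15404 and 12186 on the high Myc arrays, 2126, 2526 and 1443 on the low Myc arrays, and 2803 and 416 on those labelled no Myc. The array labelled no Myc replicate 1 therefore had more MYC signal than any low Myc array, against its label, and every difference from no Myc below rests on it and 1 other array. Among the genes described here, the array labelled no Myc replicate 1 read higher than replicate 2 at 19 of 42 (45.2%, against 49.5% of all genes), with a median difference of -0.03 (log2). The B-lymphocyte label was checked with 7 of 8 listed markers, whose summed intensity was 19392 to 27403 in high Myc, 23142 to 26601 in low Myc and 41521 to 49718 in no Myc; 6 of the 7 were called lower in high than in no Myc. The 4 myeloid markers summed to 253 to 304, 229 to 281 and 1192 to 1606 in the same order of groups; ITGAM, an integrin subunit, gave 139 to 168 of the sum in high Myc and 99.6 to 150 in low Myc, against 1480 and 1069 in no Myc. The 5 T and NK cell markers summed to 501 to 651, 444 to 567 and 598 to 703. The 3' signal of GAPDH exceeded its 5' signal by 0.25 and 0.42 (log2) on the no Myc arrays and by 0.01 to 0.24 on the others. The same measure for ACTB did not set no Myc apart. It was 0.004 and -0.01 in no Myc, -0.05 to 0.19 in high Myc and -0.07 to 0.02 in low Myc. The B-lymphocyte sums and, through ITGAM, the myeloid sums thus move with the comparisons against no Myc. The other myeloid markers, CD14, CSF1R and MPO, were called in no comparison. The GAPDH values lean the same way, though no Myc replicate 1 (0.253) was close to high Myc replicate 3 (0.243). The part of these sums and GAPDH values in the comparisons was not tested.

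High Myc cells had more RNA of most pore and transport genes than no Myc cells. By limma's test with Benjamini-Hochberg adjustment over all genes, at an adjusted p under 0.05, 28 of the 42 genes (66.7%) were called higher and 1 (2.38%) lower, where 14.2% of all genes were called higher and 9% lower. At 14 genes (33.3%, against 7.58% of all genes) the rise was also at least 2-fold, and no gene of the 42 was called lower at that size (0, against 3.7% of all genes). All high Myc arrays lay above both no Myc arrays at 29 genes (69.0%, against 20.6% of all genes) and below both at 2 (4.76%, against 17.8%). In bulk RNA of this kind, fewer cells in a state and less RNA per cell cannot be told apart. The median difference over the 42 genes was 0.87 (log2), beside -0.01 over all genes. A further 12 genes were called in no comparison between the 3 groups on the probe sets that stand for them, among them KPNB1, NUP62, NUP58 and NUP214. Other probe sets of KPNB1, NUP58 and NUP214 were called higher and 1 of NUP210 lower, as given with the probe sets.

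**Figure D1:**
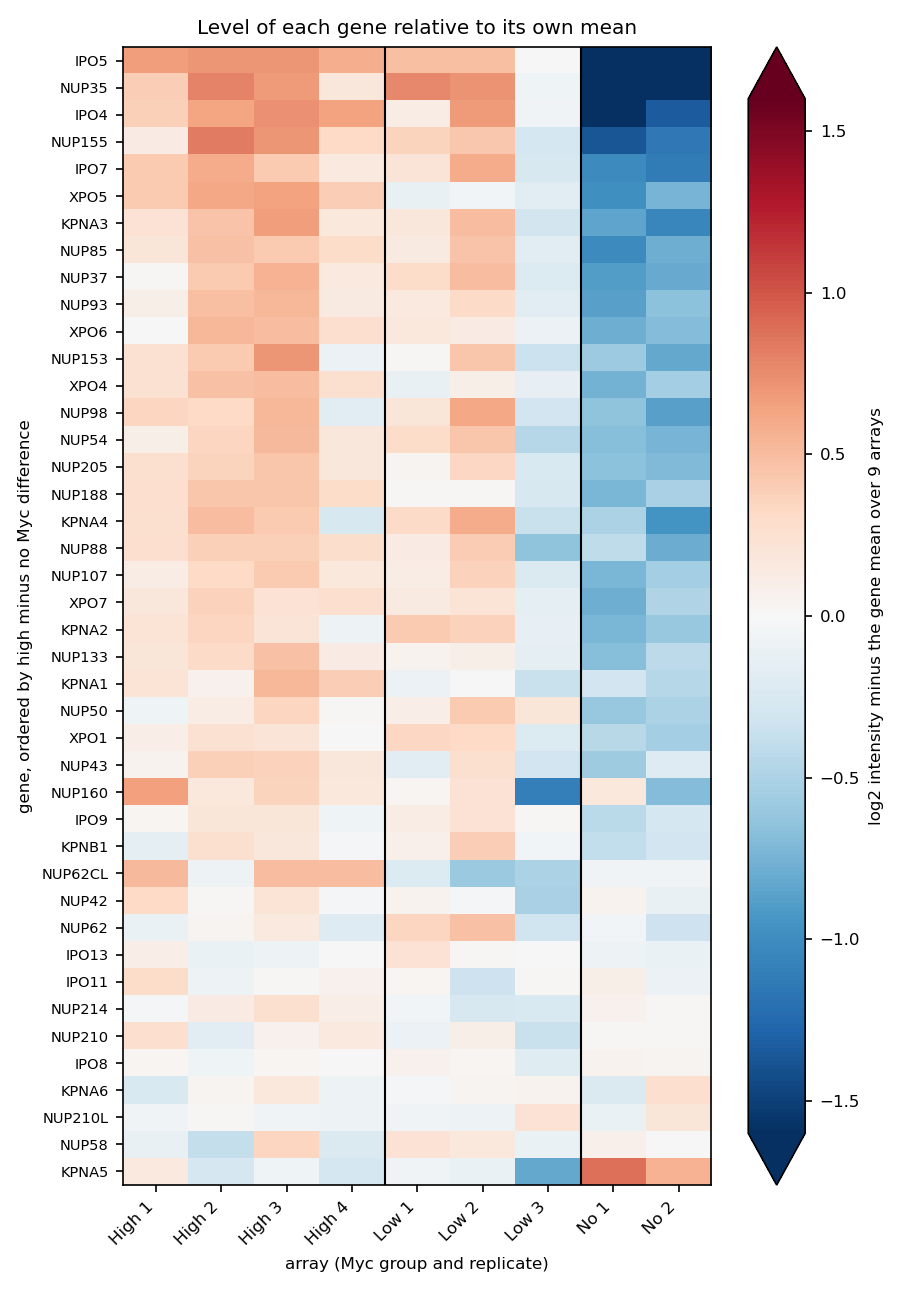
The colour gives log2 intensity minus the gene's own mean over 9 arrays for the 42 genes (down) on each array (across), with lines between the high, low and no Myc groups; values beyond the ends of the colour scale take its end colour. The 2 no Myc arrays are blue for most genes in the upper part, while KPNA5 at the bottom runs the other way, and low Myc replicate 3 is paler or bluer than the other low Myc arrays at most genes.

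The inner ring rose as a whole, with 5 of its 5 genes called higher in high Myc and a median difference of 1.08 (log2). NUP35 (Entrez gene 129401), which touches the membrane and binds NUP155 and NUP93, had intensities of 695, 918, 852 and 599 in high Myc, against 157 and 162 in no Myc. Every high Myc array lay far above both no Myc arrays. The difference was 2.24 ± 0.25 (log2 ± SE, a 4.73-fold rise, adjusted p = 0.000373 by limma). NUP155, a scaffold protein that links the ring to the membrane, had 492, 801, 731 and 559 in high Myc, against 174 and 204 in no Myc. The groups did not overlap, and the rise was 1.75 ± 0.25 (3.37-fold, adjusted p = 0.00103 by limma). NUP93, which ties the ring to the channel proteins, rose by 1.08 ± 0.17, and the large paralogous scaffold proteins NUP205 and NUP188 rose by 0.99 ± 0.15 and 0.98 ± 0.12 (log2 ± SE).

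In the outer ring 5 of 6 genes were called higher, with a median of 0.86 (log2). NUP85, a short-arm subunit of the Y complex, had 828, 1010, 970 and 895 in high Myc, against 359 and 422 in no Myc. The lowest high Myc array was clearly above the higher no Myc array, and the rise was 1.25 ± 0.17 (2.37-fold, adjusted p = 0.000894 by limma). NUP37, a peripheral subunit, rose by 1.13 ± 0.21, NUP107 and NUP133, stem subunits, by 0.89 ± 0.17 and 0.83 ± 0.13, and NUP43, another peripheral subunit, by 0.63 ± 0.18 (log2 ± SE). NUP160, which sits at the hub of the Y, was not called, at 0.60 ± 0.37 (adjusted p = 0.36 by limma). It had 753, 535, 609 and 538 in high Myc, against 538 and 296 in no Myc. The no Myc arrays disagreed for NUP160, and the array labelled replicate 1 lay within the high Myc range.

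The genes of the channel and of the cytoplasmic side mostly did not pass the test on the probe sets that stand for them. Other probe sets of NUP58 and NUP214 were called higher, as given with the probe sets. Of the central channel trimer, NUP54 was called higher (0.99 ± 0.23, log2 ± SE), while NUP62 differed by 0.16 ± 0.21 and NUP58 by -0.14 ± 0.19. NUP62 had 1519, 1685, 1827 and 1423 in high Myc, against 1590 and 1303 in no Myc. These groups overlapped, and the 95% interval of the difference, -0.33 to 0.64, leaves room for a change of either sign. On the cytoplasmic side NUP88 was called higher (0.92 ± 0.25). Its partner NUP214 differed by 0.07 ± 0.11 and NUP42, which works with the mRNA export helicase, by 0.17 ± 0.17. NUP98, a repeat nucleoporin whose transcript also encodes the Y complex subunit NUP96, rose by 1.01 ± 0.26. In the nuclear basket NUP153 rose by 1.02 ± 0.25 and NUP50 by 0.66 ± 0.14. The membrane-spanning NUP210 differed by 0.06 ± 0.15. Its paralogue NUP210L was near the bottom of the scale, at 22.8 to 28.9 on the 9 arrays, and was the 1 gene of the 42 with a mean log2 under 5.

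Among importins, the adaptors and the carriers both split into genes that rose and genes that did not. Of the 6 importin alpha genes, which hold classical nuclear localization signals and need importin beta to cross, 4 were called higher and 1 lower. KPNA3 had 1584, 1855, 2145 and 1512 in high Myc, against 751 and 656 in no Myc. Every high Myc array was above both no Myc arrays by a wide margin, and the rise was 1.32 ± 0.22 (2.50-fold, adjusted p = 0.00217 by limma). KPNA2, an adaptor abundant in dividing cells, rose by 0.84 ± 0.18, KPNA4 by 0.96 ± 0.29 and KPNA1 by 0.69 ± 0.15 (log2 ± SE). KPNA6 differed by -0.05 ± 0.16.

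KPNA5 was the 1 gene of the 42 called lower. Its intensities were 112, 83.6, 95.5 and 82.8 in high Myc, against 186 and 148 in no Myc. No high Myc array reached the lower no Myc array, and the difference was -0.84 ± 0.23 (1.79-fold lower, adjusted p = 0.0249 by limma). The call was lost in 5 of 9 leave-one-out fits, with adjusted p up to 0.214. The other probe sets of KPNA5 gave -0.55 ± 0.25 and -0.05 ± 0.16, and neither was called.

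The carriers of the importin beta family gave both the largest rise of the 42 genes and some of the smallest differences. IPO5 (Entrez gene 3843), a carrier of ribosomal proteins and histones, had 2561, 2631, 2631 and 2409 in high Myc, against 408 and 530 in no Myc. The high Myc arrays were tightly grouped and all lay several-fold above no Myc, for a rise of 2.46 ± 0.16 (5.49-fold, adjusted p = 8.83e-05 by limma). IPO4 (Entrez gene 79711), a carrier of histones H3 and H4, had 755, 900, 966 and 909 in high Myc, against 167 and 230 in no Myc. IPO7, which takes ribosomal proteins and, with KPNB1, histone H1 into the nucleus, had 1279, 1449, 1277 and 1069 in high Myc, against 472 and 440 in no Myc. In both genes the lowest high Myc array lay well above the higher no Myc array. IPO4 rose by 2.16 ± 0.21 (4.48-fold, adjusted p = 0.000242) and IPO7 by 1.47 ± 0.21 (2.77-fold, adjusted p = 0.00118, both by limma). IPO9, a carrier of actin and of histones H2A and H2B, rose by 0.44 ± 0.11.

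KPNB1, the importin beta that carries the importin alpha adaptors, was not called on the probe set that stands for it. It had 4414, 5807, 5500 and 4742 in high Myc, against 3712 and 3947 in no Myc. Every high Myc array was above both no Myc arrays, but the difference of 0.41 ± 0.15 had an adjusted p of 0.0969 by limma. IPO8, a paralogue of IPO7 that carries SMAD proteins, differed by -0.05 ± 0.10 with a 95% interval of -0.28 to 0.18 (log2). IPO11 and IPO13 differed by 0.07 ± 0.14 and 0.08 ± 0.10. Of the 8 importin beta genes, 4 were thus called higher.

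All 5 exportins were called higher on the probe sets that stand for them, with a median of 1.01 (log2). XPO5 (Entrez gene 57510), which exports microRNA precursors, had 845, 963, 983 and 826 in high Myc, against 318 and 377 in no Myc. The groups were far apart, and the rise was 1.38 ± 0.12 (2.60-fold, adjusted p = 0.000142 by limma). XPO6, the exporter of actin, rose by 1.06 ± 0.16, XPO4, the exporter of the translation factor eIF5A, by 1.01 ± 0.12, and XPO7, a carrier of broad specificity, by 0.89 ± 0.13. XPO1, the general exporter of proteins with leucine-rich signals and of ribosomal subunits, rose least among them, by 0.64 ± 0.16 (1.55-fold, adjusted p = 0.0192 by limma). It had 3991, 4396, 4278 and 3698 in high Myc, against 2724 and 2536 in no Myc, with no overlap. The direction of XPO1 turns with the probe set. Read as the median over its 3 probe sets, which is 235927_at on every array, XPO1 was lower by -0.74.

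**Figure D2:**
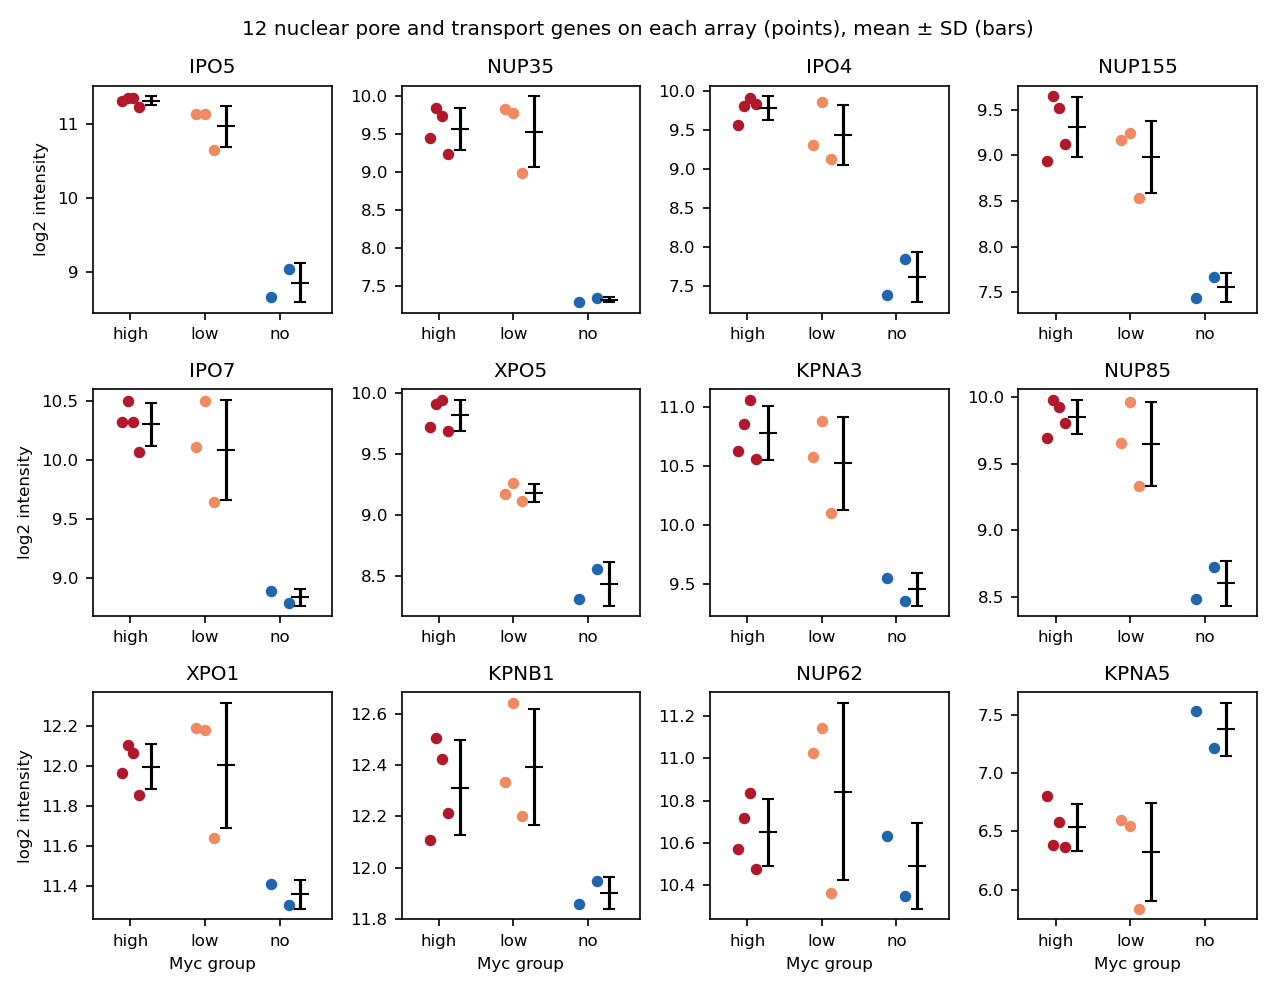
Log2 intensity on each array (points) with mean ± SD per group (bars) for 12 of the genes in high, low and no Myc (n = 4, 3 and 2). IPO5, NUP35 and IPO4 have their no Myc points far below the others, XPO5 steps down from high to low to no Myc, NUP62 overlaps across groups, and KPNA5 is highest in no Myc.

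Of the 29 genes called between high and no Myc, 16 passed in each of the 9 leave-one-out fits (1 array omitted at a time). They were all 5 inner ring genes, NUP85, NUP133, NUP37, KPNA3, IPO4, IPO5, IPO7, XPO4, XPO5, XPO6 and XPO7. Leaving out a no Myc array removed the most calls. Without the array labelled no Myc replicate 1, 17 genes were called higher, and without no Myc replicate 2, 20 were. With 1 no Myc array left, that array is assumed to vary as the other groups do. KPNA4 was the least stable riser, lost in 6 of the 9 fits with adjusted p up to 0.265. Leaving out the array labelled no Myc replicate 1 and low Myc replicate 3 together, chosen after seeing the data, gave 26 called higher and 1 lower.

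Because many of the genes move together, the bases upstream of their start sites are shown for 5 of them. These are IPO4, IPO7, KPNA3 and NUP188, which hold the motif searched below, and IPO5, which rose most and does not hold it. They are not the 5 genes that rose most, and most of the genes searched lacked the motif. MYC binds DNA with MAX at the E-box, whose letters are CACGTG, a sequence that reads the same on both strands. It was searched in RefSeq promoter windows (GRCh38.p14) of 250 bases before to 50 after each start site. Of the 42 genes, 37 had a window, and 6 of them (16.2%) held the motif, against 10.9% of 15843 protein-coding genes. All 6 (IPO4, IPO7, KPNA3, NUP188, XPO1 and NUP50) were among the 25 genes with a window that were called higher in high Myc, and 0 of the 12 others held it. These counts are small, and no such split was made for genes outside the 42. A link between the motif and the calls was not tested. A match says only that these letters are present, and the windows of IPO5, the gene with the largest rise, and of 18 other called genes did not hold them. The windows of IPO4 (chr14:24188817-24189066, minus strand), IPO7 (chr11:9384402-9384651, plus strand), KPNA3 (chr13:49792683-49792932, minus strand), NUP188 (chr9:128947449-128947698, plus strand) and IPO5 (chr13:97953425-97953674, plus strand) are printed below, 5′ to 3′ on the gene's strand and ending just before the start site, with the motif in capitals.
IPO4: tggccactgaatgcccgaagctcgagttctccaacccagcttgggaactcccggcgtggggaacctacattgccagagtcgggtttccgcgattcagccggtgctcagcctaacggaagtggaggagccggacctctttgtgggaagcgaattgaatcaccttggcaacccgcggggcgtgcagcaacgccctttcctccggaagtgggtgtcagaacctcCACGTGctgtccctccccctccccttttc
IPO7: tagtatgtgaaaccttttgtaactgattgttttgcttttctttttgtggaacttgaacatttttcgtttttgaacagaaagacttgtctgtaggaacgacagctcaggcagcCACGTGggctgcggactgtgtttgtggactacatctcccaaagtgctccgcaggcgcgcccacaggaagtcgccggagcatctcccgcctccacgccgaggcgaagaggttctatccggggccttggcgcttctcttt
KPNA3: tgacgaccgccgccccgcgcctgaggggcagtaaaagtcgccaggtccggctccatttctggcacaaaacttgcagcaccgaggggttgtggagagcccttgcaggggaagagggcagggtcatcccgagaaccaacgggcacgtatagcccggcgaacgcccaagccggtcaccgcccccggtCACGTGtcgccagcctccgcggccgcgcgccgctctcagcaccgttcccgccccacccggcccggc
NUP188: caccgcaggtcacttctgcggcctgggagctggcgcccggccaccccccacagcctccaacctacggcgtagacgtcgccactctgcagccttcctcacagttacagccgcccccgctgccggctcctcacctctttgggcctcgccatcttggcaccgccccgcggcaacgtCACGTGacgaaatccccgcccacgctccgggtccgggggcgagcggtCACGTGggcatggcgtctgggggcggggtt
IPO5: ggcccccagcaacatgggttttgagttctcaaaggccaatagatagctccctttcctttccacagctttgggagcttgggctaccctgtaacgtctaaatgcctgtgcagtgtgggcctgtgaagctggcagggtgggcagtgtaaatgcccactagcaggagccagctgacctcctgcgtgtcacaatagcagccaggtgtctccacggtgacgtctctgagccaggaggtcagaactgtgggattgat

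The motif lay 29 bases upstream of the start site in IPO4, 138 in IPO7, 66 in KPNA3, and both 77 and 30 in NUP188, the 1 gene with 2 matches among the 37 searched. In XPO1 it lay 44 bases upstream, in 1 of the gene's 2 windows, and in NUP50 174 bases upstream. Beside the matches stand rises of 2.16, 1.47, 1.32, 0.98, 0.64 and 0.66 (log2) for IPO4, IPO7, KPNA3, NUP188, XPO1 and NUP50, and beside the IPO5 window without a match a rise of 2.46.

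In low Myc cells 23 of the 42 genes (54.8%) were called higher than in no Myc cells and 1 (2.38%) was called lower, where 11.3% of all genes were called higher and 8.55% lower. The rise was at least 2-fold at 8 genes (19.0%, against 5.55% of all genes), and the 1 gene called lower, KPNA5, was also past 2-fold (4.12% of all genes). All low Myc arrays lay above both no Myc arrays at 27 genes (64.3%, against 20% of all genes) and below both at 3 (17.6% of all genes). The median difference was 0.62 (log2), beside 0.00 over all genes. High and low Myc were each set against the same 2 no Myc arrays, so their differences are not independent of each other, and they are given side by side.

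The inner ring had 5 of 5 genes called higher, the exportins 5 of 5, the outer ring 4 of 6, the importin beta family 4 of 8, and importin alpha 2 higher and 1 lower of 6. NUP35 had 904, 871 and 508 in low Myc, against 157 and 162 in no Myc. IPO5 had 2249, 2252 and 1610 in low Myc, against 408 and 530 in no Myc. IPO4 had 632, 932 and 561 in low Myc, against 167 and 230 in no Myc. In all 3 genes low Myc replicate 3 was the lowest of its group and still far above both no Myc arrays. The rises were 2.21 ± 0.26 for NUP35 (4.62-fold, adjusted p = 0.000916), 2.11 ± 0.17 for IPO5 (4.33-fold, adjusted p = 0.00032) and 1.82 ± 0.23 for IPO4 (3.52-fold, adjusted p = 0.00102), all by limma.

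NUP155 and IPO7 had low Myc rises of 1.43 ± 0.26 and 1.25 ± 0.23 (log2 ± SE), KPNA3 and NUP85 of 1.07 ± 0.23 and 1.04 ± 0.18, and NUP37 of 1.03 ± 0.22. XPO5 rose by 0.75 ± 0.12 (1.68-fold, adjusted p = 0.00316 by limma). KPNA5 had 96.6, 93.3 and 57.2 in low Myc, against 186 and 148 in no Myc. Its low Myc arrays were all below no Myc, by -1.05 ± 0.24 (2.07-fold lower, adjusted p = 0.0138 by limma). The 5 genes called in high but not in low Myc were NUP43, NUP88, NUP153, KPNA1 and KPNA4, with low Myc differences of 0.31, 0.56, 0.74, 0.24 and 0.91, and none of the 5 was called between high and low Myc.

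The low Myc calls rested more on single arrays. NUP85, NUP35, IPO4, IPO5, IPO7 and XPO5 stayed called in all 9 leave-one-out fits, and the other 18 of the 24 were lost in at least 1. Without the array labelled no Myc replicate 1, 6 genes were called higher, and without no Myc replicate 2, 15 were. The KPNA5 call was lost without the array labelled no Myc replicate 1 (adjusted p = 0.129 by limma). Low Myc replicate 3 was the lowest of its group at 36 of the 42 genes (85.7%, against 38.4% of all genes), and without it 28 genes were called higher. The median centred log2 level of the 42 genes was 0.12, 0.28 and -0.22 on the low Myc arrays, against -0.59 and -0.54 on the no Myc arrays.

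Between high and low Myc few of the genes differed. XPO5 and NUP62CL were called higher in high Myc, 2 of 42 (4.76%, against 2.33% of all genes), and 0 were called lower (1.27% of all genes). All high Myc arrays lay above all low Myc arrays at 8 genes (19.0%, against 8.06% of all genes) and below all of them at 0 (4.66% of all genes). XPO5 had 845, 963, 983 and 826 in high Myc, against 578, 612 and 553 in low Myc. The groups were clearly apart, by 0.63 ± 0.10 (1.55-fold, adjusted p = 0.0156 by limma, 95% interval 0.40 to 0.87). XPO5 was thus called higher in high Myc than in both other groups, the 1 gene of the 42 with that pattern (2.38%, against 1.3% of all genes). Its call against low Myc was lost when high Myc replicate 3 was left out, and again for low Myc replicate 1; the adjusted p of XPO5 then reached 0.0602 at most. It was also lost with the replicate number as a block (adjusted p = 0.0541) and without both the array labelled no Myc replicate 1 and low Myc replicate 3 (adjusted p = 0.0588, all by limma).

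NUP62CL, a little studied paralogue of NUP62, had intensities near the bottom of the scale, 50.3, 33.1, 49.5 and 49.2 in high Myc, against 30.1, 23.2 and 24.7 in low Myc. The groups did not overlap, but the call (0.80 ± 0.16, adjusted p = 0.0356 by limma) was lost in 8 of 9 leave-one-out fits. NUP188, XPO4 and KPNA1 were 0.43 ± 0.10, 0.42 ± 0.11 and 0.45 ± 0.13 (log2 ± SE) apart and not called, although another probe set of KPNA1 was called when every probe set was tested (0.99 ± 0.15, adjusted p = 0.0204 by limma). For NUP35 the difference was 0.04 with a 95% interval of -0.47 to 0.54, and for IPO5 0.34 with an interval of 0.02 to 0.67. The median difference over the 42 genes was 0.21 (log2), and 0.05 without low Myc replicate 3, beside 0.00 over all genes. The sign was positive at 32 genes, and at 25 without that array. Over all genes the median was also positive in both fits (0.002 and 0.014), so most of all genes had a positive sign too.

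**Figure D3:**
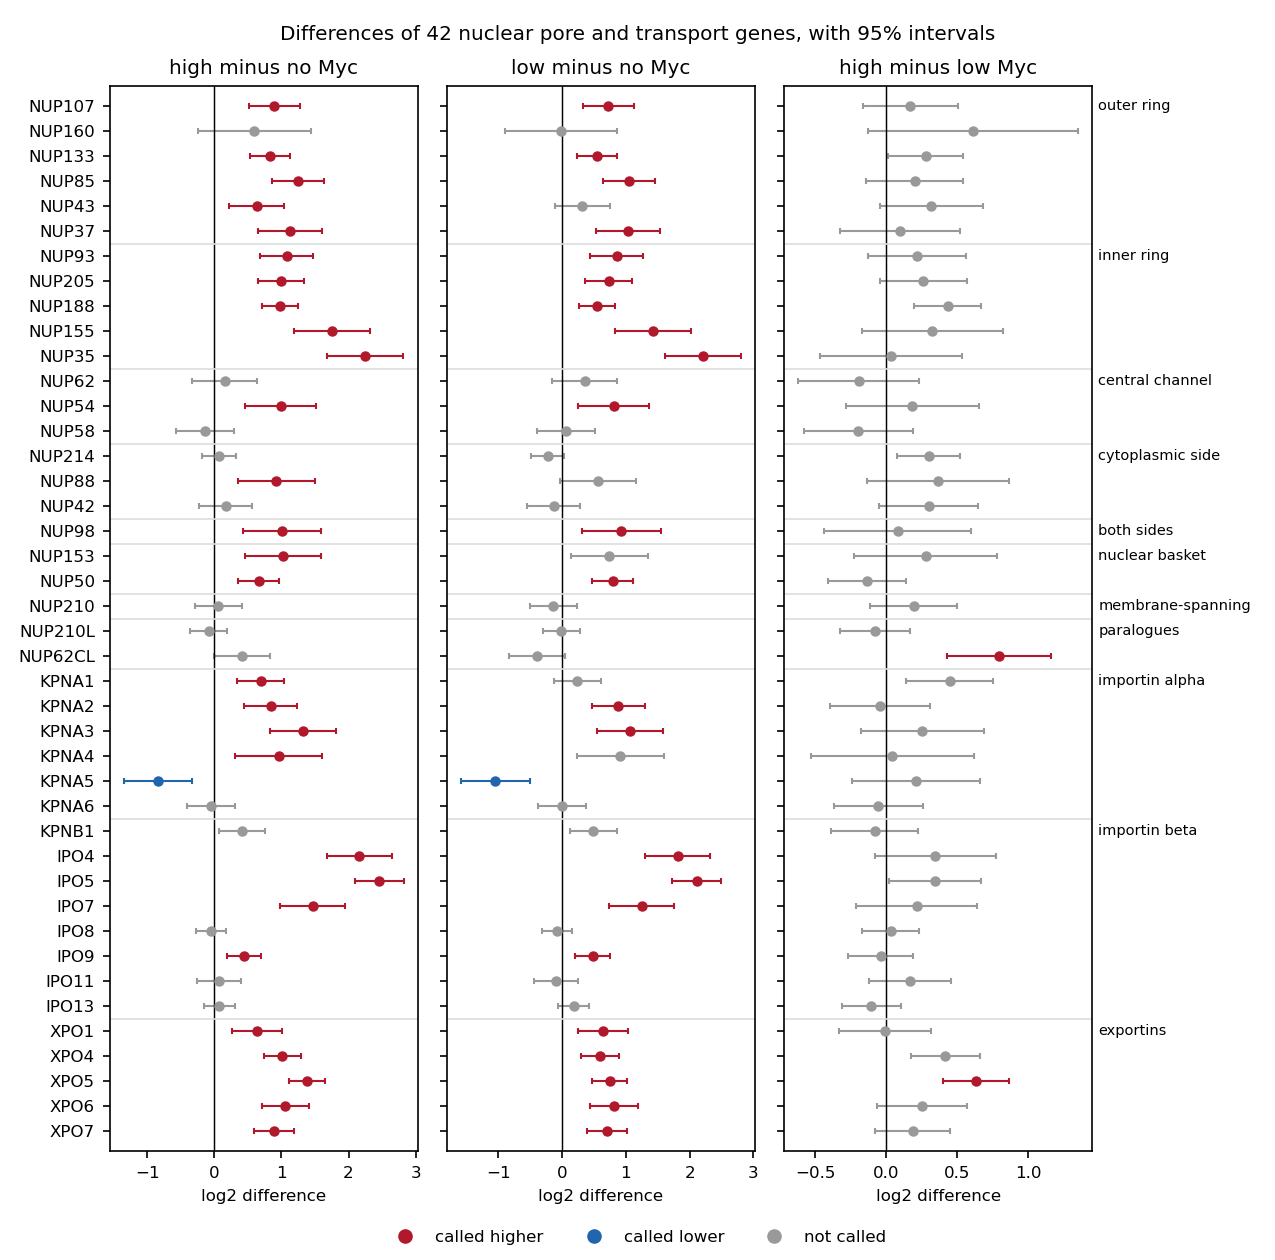
Log2 differences of the 42 genes with 95% intervals, for high minus no Myc, low minus no Myc and high minus low Myc, grouped by role and coloured by limma's call. In the first 2 panels inner ring genes and exportins lie wholly to the right of 0, and in the third most intervals cross 0, with XPO5 and NUP62CL called.

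Over the 3 groups, 23 of the 42 genes (54.8%, against 9.55% of all genes) were called lower in no Myc than in both other groups, and KPNA5 alone was called higher in no Myc than in both (2.38%, against 6.26% of all genes). Both sides of such a pattern rest on the same 2 no Myc arrays. Without the array labelled no Myc replicate 1, 6 genes were called lower in no Myc than in both, and KPNA5 was not called higher.

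Most of the genes were read by several probe sets, and these did not always move alike. Tested over all 54675 probe sets, 49 of the 115 were called higher in high than in no Myc and 3 lower, where 9.24% and 7.79% of all probe sets were. For low against no Myc the counts were 36 and 4 (6.73% and 7.66% of all probe sets), and for high against low Myc 3 and 0 (1.04% and 0.525%). Those 3 were a probe set of KPNA1 and a pair of XPO5. Of the 28 genes called higher in high Myc, 23 had another probe set, and in 12 of these another was called higher too. All but 1 of the 5 IPO5 probe sets were called higher, with rises of 2.19 to 2.69, and the fifth differed by 0.28. The 4 probe sets of its pseudogene IPO5P1, a near copy whose RNA could share probes, differed by -0.52 to 0.12 (log2).

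Within a comparison, XPO1 was the 1 gene with probe sets called in both directions. The probe set that stands for it rose by 0.64, while another, 235927_at, had 530, 520, 549 and 554 in high Myc and 544, 521 and 545 in low Myc, against 777 and 1035 in no Myc. That probe set was lower by -0.74 ± 0.11 in high Myc and by -0.74 ± 0.12 in low Myc, with no overlap. KPNA1 had probe sets called higher in high against no Myc, while 202057_at was called lower in low against no Myc (-1.01 ± 0.17). NUP210 had 1 of its 5 probe sets called lower (220035_at, -0.84 ± 0.23 in high Myc and -1.31 ± 0.24 in low Myc), and the other 4 were not called. For 3 genes not called on the probe set that stands for them, another was called higher in high than in no Myc: NUP214 (1.10 ± 0.17), NUP58 (1.26 ± 0.30) and KPNB1 (1.07 ± 0.22 and 0.83 ± 0.22, on 2 probe sets). Which transcript parts these probe sets read was not examined here.

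**Figure D4:**
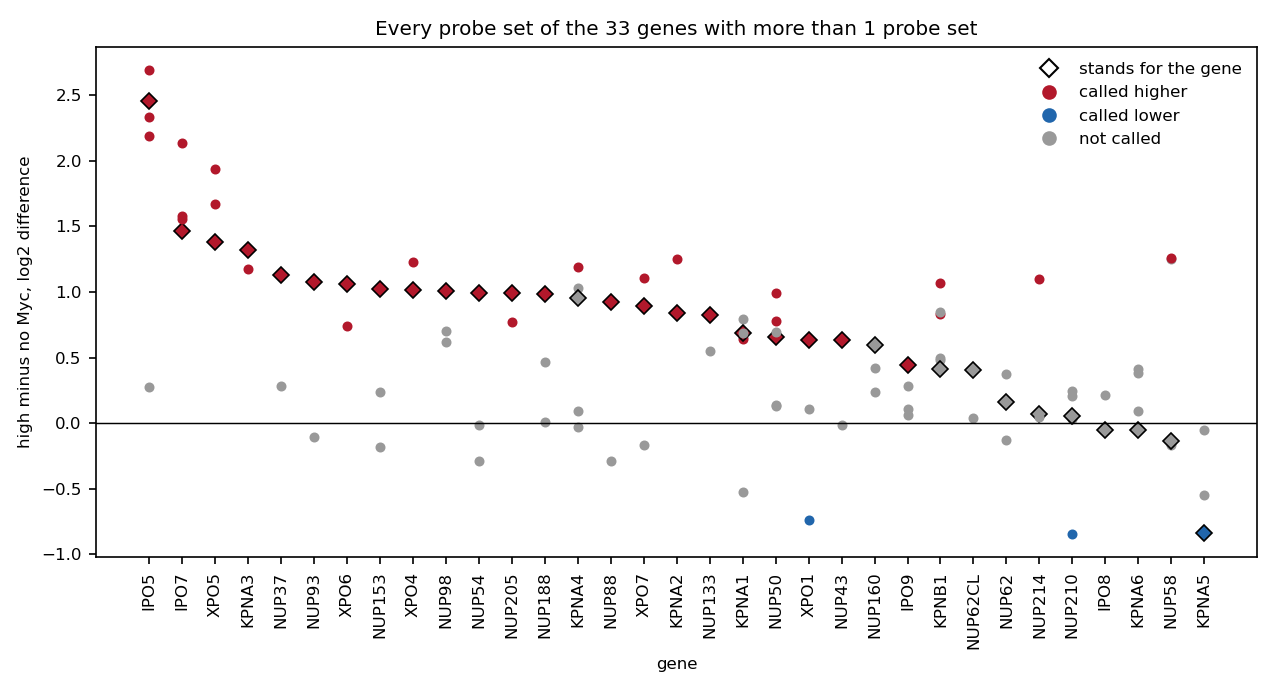
High minus no Myc log2 differences of every probe set of the 33 genes that have more than 1, with diamonds for the probe set that stands for the gene and colours for the call. IPO5 stands at the left with 4 red symbols far above 0 and 1 grey point near it, XPO1 has probe sets called on both sides of 0, and some genes at the right have a grey diamond with a red point above it.

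Other genes of the pathway whose names lie outside the rule were followed with 4 lists, in which 39 of 43 genes were measured. In high against no Myc 25 of the 39 were called higher and 0 lower (14.2% and 9% of all genes). In low against no Myc 19 were called higher and 0 lower (11.3% and 8.55% of all genes), and in high against low Myc 0 and 0 (2.33% and 1.27%). The other pore genes had 7 of 11 called higher in high Myc, the RAN cycle 5 of 6, the other karyopherins 4 of 8 and mRNA export 9 of 14. In low against no Myc these counts were 6, 4, 4 and 5.

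SEH1L, a subunit of the Y complex, had 1761, 1707, 1959 and 1453 in high Myc and 1184, 1577 and 702 in low Myc, against 292 and 247 in no Myc. High and low Myc arrays lay above both no Myc arrays, with rises of 2.67 ± 0.28 (adjusted p = 0.000279) in high Myc and 2.02 ± 0.29 (adjusted p = 0.00174) in low Myc, both by limma. CSE1L, the exporter that returns importin alpha to the cytoplasm, had 3665, 4436, 4174 and 3785 in high Myc and 3323, 3535 and 2216 in low Myc, against 870 and 911 in no Myc. Again neither group overlapped no Myc, and the rises were 2.17 ± 0.18 in high Myc and 1.74 ± 0.19 in low Myc. RAN itself, the GTPase that sets the direction of transport, rose by 1.38 ± 0.13 in high Myc and by 1.31 ± 0.14 in low Myc.

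XPOT, the tRNA exporter, rose by 2.32 ± 0.24 in high Myc, NDC1, a membrane anchor of the pore, by 2.19 ± 0.19, and RANBP1, a cofactor of GTP hydrolysis by RAN, by 2.07 ± 0.19 (log2 ± SE). The mRNA export factors DDX39A and ALYREF rose by 1.75 ± 0.19 and 1.62 ± 0.35. In low Myc the rises were 1.78 ± 0.25 for XPOT, 1.83 ± 0.21 for NDC1, 1.86 ± 0.20 for RANBP1, 1.49 ± 0.20 for DDX39A and 1.49 ± 0.37 for ALYREF. RCC1, the exchange factor that loads RAN with GTP, had 1009, 1397, 546 and 377 in high Myc, against 184 and 139 in no Myc. Its high Myc arrays spread widely but all lay above no Myc; the rise of 2.20 ± 0.59 was lost in 3 of 9 leave-one-out fits, and ALYREF was lost without the array labelled no Myc replicate 1.

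**Figure D5:**
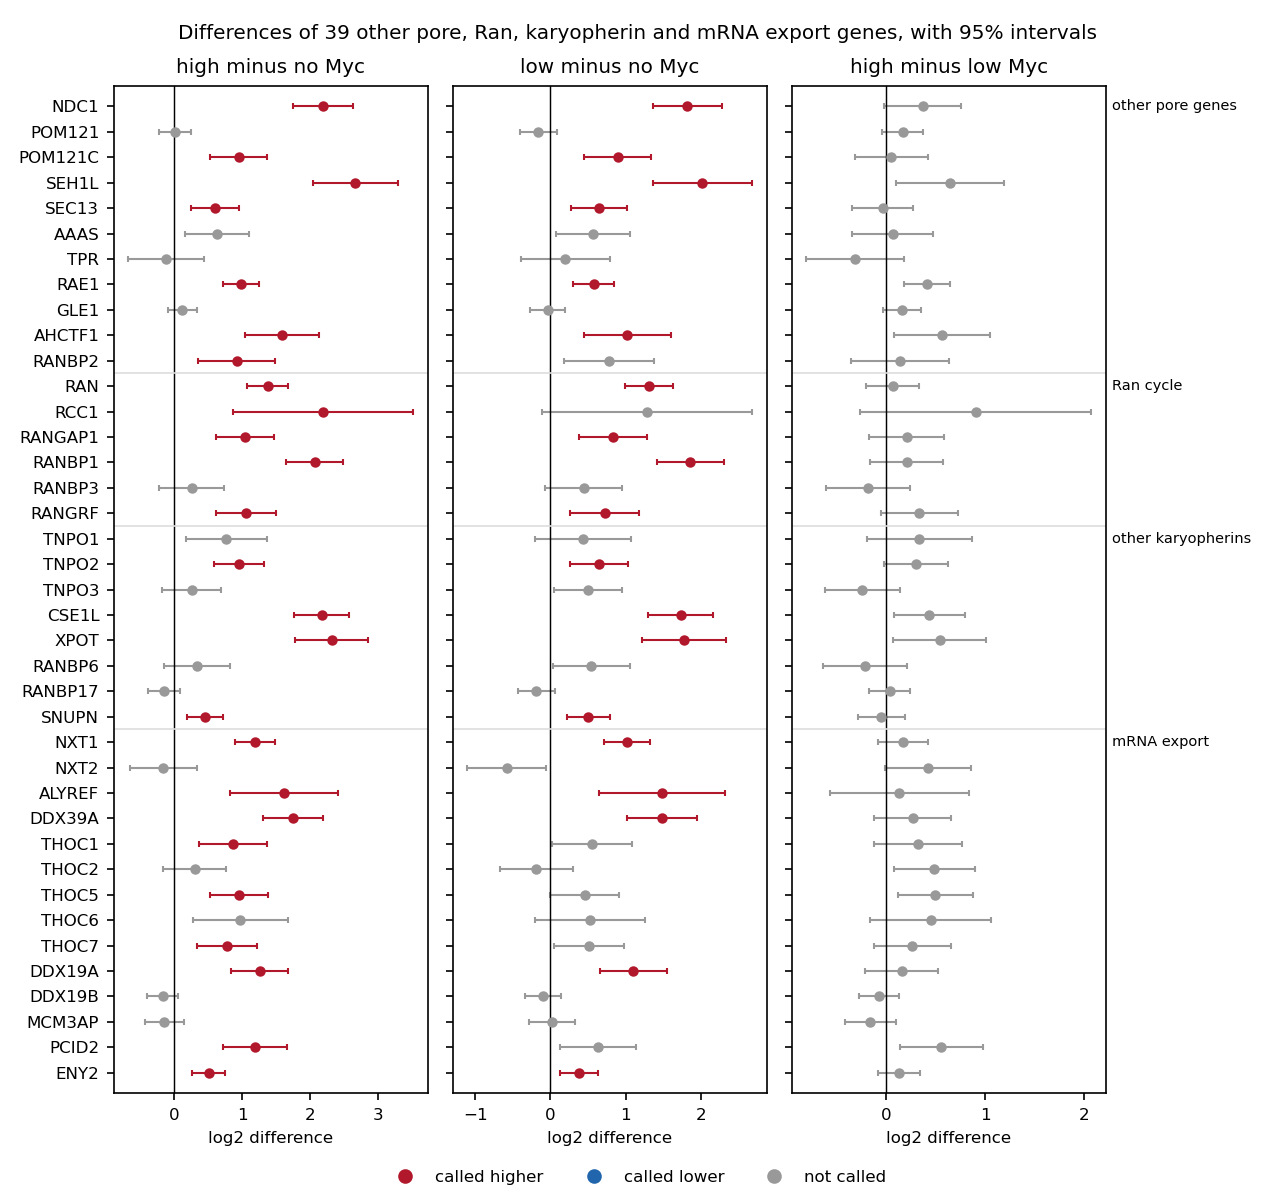
Log2 differences with 95% intervals of 39 genes outside the naming rule (other pore genes, RAN cycle, other karyopherins, mRNA export) for high minus no Myc, low minus no Myc and high minus low Myc, coloured by call. SEH1L, XPOT, NDC1, CSE1L and RANBP1 lie farthest to the right in the second panel and, together with RCC1, in the first. No gene is called in the third.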

How the data were processed

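Per the submitters' processing notes, probe sets were summarised with RMA, whose version and annotation are not given in the sources used here. The authors deposited linear intensity values, and log2 of them was used. RMA is meant to give arrays a common distribution, so a change in total RNA per cell cannot be seen. The deposited values did not fully share a distribution, with array medians of 75.3 to 80.3. Repeating quantile normalization moved the median high minus no Myc difference of the 42 genes from 0.87 to 0.70 (log2). The platform annotation gives 41097 of 54675 probe sets a single symbol, 1801 several and 11777 none; symbols were updated through Entrez identifiers. Each of the 19775 genes was represented by its probe set of highest mean log2.

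With limma 3.58.1, run in R 4.3.3, group means were fitted over all 9 arrays (eBayes without trend, 6 residual degrees of freedom), two-sided, with Benjamini-Hochberg adjustment over all genes and a threshold of 0.05. The fit was tested on simulated data. The 42 genes, the pathway lists and the markers were chosen with earlier results of these data known. Any of the 42 could be named; of the 4 pathway lists, the 8 called genes with the largest log2 difference per comparison were. Alternatives covered normalization, probe set choice, filters, priors, weights, a replicate block, thresholds and each array left out. No detection calls were used. The number of arrays limits the precision.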

Additional observations from a re-analysis of the deposited data

Results flagged for a closer look

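Of 43 genes tested, the 42 described here and MYC, 1 had an array far from the rest of its group, among the 4 high Myc arrays. NUP62CL read 5.05 (log2) on high Myc replicate 2, an intensity of 33.1, where the other 3 high Myc arrays read 49.2 to 50.3. The low Myc arrays read 23.2 to 30.1, and the no Myc arrays 33.8 and 33.8. Chance flags about 1 in 20 groups. All of these intensities lie near the bottom of the scale, and the call of NUP62CL between high and low Myc was lost in 8 of 9 leave-one-out fits.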

How the results depend on the processing

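The counts of called genes moved with the no Myc arrays, the probe set chosen and the threshold. Leaving out each array in turn gave 17 to 28 genes called higher and 0 to 1 lower in high against no Myc (median log2 difference 0.79 to 0.91), 6 to 28 and 0 to 1 in low against no Myc (0.53 to 0.80), and 0 to 2 higher in high against low Myc (0.05 to 0.32). It gave 6 to 26 genes lower in no Myc than in both other groups, 0 to 1 higher there, and 0 to 2 higher in high Myc than in both. In the 4 pathway lists it gave 14 to 26, 10 to 22 and 0 to 1 called higher in the 3 comparisons, and 0 to 1 lower in low against no Myc. Without the array labelled no Myc replicate 1 and low Myc replicate 3, an alternative chosen after seeing the data, 0 genes were lower in low Myc, 0 were higher in high than in low Myc, and 0 were higher in no Myc or in high Myc than in both others.

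With each gene read as the median over its probe sets, 22 genes were called higher in high than in no Myc, against 28 in the main fit. In low against no Myc 16 were, against 23. Of these, 21 and 14 were also called higher in the main fit. The median differences were 0.61 and 0.44 in high and low against no Myc. In this reading 3 genes were called lower in low Myc, 1 was called higher in high than in low Myc, and 15 were lower in no Myc than in both. Because this reads other probe sets, NUP54 gave -0.29 and -0.10 and XPO1 -0.74 and -0.74 in high and low Myc. The NUP54 values are those of 215213_at, which read 14.5 to 20.8 on the 9 arrays, near the bottom of the scale. The XPO1 values are those of 235927_at. In low Myc NUP214 gave 0.69 and IPO9 -0.062. With every probe set tested, 1 gene was higher in high than in low Myc. Fitting only the groups compared left 15 genes higher and 0 lower in low Myc, 12 pathway genes higher, 1 gene higher in high than in low Myc, 15 lower in no Myc than in both and 0 higher there. Array weights gave 4 genes and 1 pathway gene higher in high than in low Myc, and 3 higher in high Myc than in both. Repeating quantile normalization gave 1 pathway gene lower in high Myc and 1 higher in high than in low Myc. The median differences of the 42 genes were then 0.70 and 0.56 in high and low against no Myc. At an adjusted p under 0.01, 11 genes and 9 pathway genes were higher in low Myc, and 0 genes were lower in high Myc, lower in low Myc or higher in high than in low Myc. Asking for 2-fold gave 14 genes and 15 pathway genes higher and 0 genes lower in high Myc, 8 and 11 higher in low Myc, and 0 higher in high than in low Myc. Beyond these counts, the cause of the shifts was not tested.

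The replicate numbers did not pair the arrays throughout. With group means removed, same-numbered arrays of different groups correlated at -0.314 to 0.465. Of the 7 pairs, 4 lay over 0.1, and 3 of 8 arrays matched their own number best. All pairs of replicate 1 arrays, the no Myc one included, correlated at 0.251 to 0.465, while high and low Myc replicate 3 gave -0.314. Whether the replicate 1 arrays share a source of variation was not tested. With the replicate number as a block, 27 genes were higher and 0 lower in high Myc, 20 higher and 1 lower in low Myc, 0 higher in high than in low Myc, and 0 higher in high Myc, or in no Myc, than in both others. With 2 no Myc arrays, of which 1 goes against its label, the differences from no Myc are the least certain, and genes near the bottom of the scale carry no statement on presence.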
